A study of Homo sapiens with 8 samples.

Results

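ZFAND2A and 8 other genes that handle ubiquitin or serve the unfoldase p97 were followed in A375 melanoma cells in which HSP90 was inhibited and HSF1 was knocked down. Of the 9 genes, ZFAND2A was the only one that limma called in any comparison. Its mean signal was 2.52-fold higher in shHSF1 cells with the HSP90 inhibitor NVP-HSP990 than in shNTC cells with DMSO, and with Doxycycline-induced HSF1 knockdown the mean was 0.516 times that without the knockdown, both under the inhibitor. Of all genes tested, 0.197% were called higher in the first of these comparisons and 1.85% lower in the second. Each ZFAND2A call was lost in some alternative fits. NPLOC4, a p97 cofactor, had the next lowest change with the knockdown, which did not pass the adjusted test. The members were ZFAND2A, ZFAND2B, ZFAND5, UBB, STUB1, VCP, NPLOC4, UFD1 and UBQLN1, named by gene symbol, and every probe set annotated to one of these symbols alone was taken. That gave 18 probe sets of 41091 with a single symbol, and 9 genes of 19775. All 9 genes passed the filter on low signals (at or above the median of the array in at least 2 of 8 arrays), as did 12672 genes in all.

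The arrays compare 4 groups of A375 cells, a BRAF-mutant human melanoma line, with 2 HG-U133 Plus2 arrays in each. Cells carrying the inducible HSF1 hairpin that the titles call sh1999 were grown with Doxycycline and treated with NVP-HSP990 (shHSF1/Dox/NVP-HSP990), or received NVP-HSP990 without Doxycycline (shHSF1/NVP-HSP990). Cells carrying a non-targeting hairpin received DMSO with Doxycycline (shNTC/Dox/DMSO) or without it (shNTC/DMSO). Cells were seeded for 3 days, Doxycycline was used at 100 ng/ml, and NVP-HSP990 at 100 nM or DMSO at 0.1% was given for 3 h. The groups follow the sample titles, since the treatment text of the labels gives Doxycycline for every sample. All 4 groups carry a lentiviral Tet-On hairpin vector, and 1 HSF1 hairpin stands for the knockdown. No label ties the 2 arrays of a group to separate cultures, so p-values rest on a spread between arrays that may be technical. No shNTC sample with the inhibitor and no shHSF1 sample with DMSO was analysed here, so the inhibitor and the hairpin line cannot be told apart in shHSF1/NVP-HSP990 against shNTC/DMSO.

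Damaged proteins are marked with chains of ubiquitin by a cascade of E1, E2 and E3 enzymes, and the marked proteins are then unfolded and passed to the proteasome. The hexameric ATPase p97, encoded by VCP, pulls ubiquitinated proteins out of membranes and complexes, and its cofactors decide which substrates it meets. HSF1 is the transcription factor of the heat shock response, and inhibition of HSP90 releases it. ZFAND2A, also known as AIRAP, is an AN1 zinc finger protein that binds the proteasome and is induced by arsenite and heat.

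The arrays had median signals between 10.6 and 14.2 after scaling, and array pairs correlated at 0.980 to 0.995 over all probe sets. The ratio of the 3-prime to the 5-prime ACTB control was 46.8 on the second shNTC/Dox/DMSO array and 4.73 to 18.9 on the others. HSF1 had signals of 5.5 and 7.3 in shHSF1/Dox/NVP-HSP990, 99 and 42.5 in shHSF1/NVP-HSP990, 36.6 and 47.9 in shNTC/Dox/DMSO, and 38.2 and 47.3 in shNTC/DMSO. It was lowest in the group labelled as knockdown, below the array median, and the groups with and without knockdown did not overlap. Of the 6 melanocyte lineage markers with a probe set, MITF, SOX10 and S100B lay above the median on all 8 arrays while PMEL, MLANA and TYR lay below it on all of them. The summed signal of 6 fibroblast markers was 891 to 929 in shHSF1/Dox/NVP-HSP990 and 640 to 642 in shHSF1/NVP-HSP990. It was 500 to 603 in shNTC/Dox/DMSO and 603 to 622 in shNTC/DMSO. Most of the sum was LUM, with signals of 373.5 to 756.3 over the 8 arrays. COL1A1 and PDGFRB also lay at or above the median on all 8 arrays and DCN on 7, while COL1A2 and COL3A1 lay below it throughout. The part of these markers in the results was not tested.

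ZFAND2A is on chromosome 7 (GRCh38.p14, minus strand, 1148850 to 1160196). Its promoter window is shown because ZFAND2A is the member that moved. Windows run from 250 bases before to 50 bases after a transcript start in RefSeq, 5′ to 3′ on the gene's strand, and capitals mark a pair of inverted heat shock units, GAANNTTC or TTCNNGAA, on either strand.
ZFAND2A, chr7:1160147-1160446, minus strand: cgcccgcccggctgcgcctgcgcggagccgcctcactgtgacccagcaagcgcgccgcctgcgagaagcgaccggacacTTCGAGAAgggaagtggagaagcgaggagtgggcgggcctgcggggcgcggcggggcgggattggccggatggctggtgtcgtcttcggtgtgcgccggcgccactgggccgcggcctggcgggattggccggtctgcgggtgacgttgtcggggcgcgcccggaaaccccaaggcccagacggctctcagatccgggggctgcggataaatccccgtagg
The ZFAND2A window held one such run, TTCGAGAA, which begins 171 bases before the start (chr7:1160360-1160367). These letters are common. They were found in 4737 of 35116 promoter windows of the same length (13.5%). The longer form of 3 units, searched as GAANNTTCNNGAA and TTCNNGAANNTTC, was found in 172 windows (0.49%) and in none of the members. RefSeq promoter windows were given for 7 of the 9 members, 11 windows in all, and the other 10 had no run of 2 units in these 300 bases. All UBB and NPLOC4 windows given lie at starts inside the gene, so the bases before their outermost starts were not searched. A match of letters is not evidence of binding, and HSF1 binding was not measured on these arrays.

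The single ZFAND2A probe set had signals of 518.7 and 510.1 in shHSF1/Dox/NVP-HSP990, 1001.4 and 991.4 in shHSF1/NVP-HSP990, 342.5 and 345.8 in shNTC/Dox/DMSO, and 417.8 and 371.5 in shNTC/DMSO. The shHSF1/NVP-HSP990 arrays were the highest, the knockdown arrays lay between them and both DMSO groups, and no group overlapped another. Group means were 514.4 ± 6.08 in shHSF1/Dox/NVP-HSP990, 996.4 ± 7.07 in shHSF1/NVP-HSP990, 344.2 ± 2.33 in shNTC/Dox/DMSO and 394.7 ± 32.7 in shNTC/DMSO (SD, n = 2 each). Signals are linear MAS5 intensities, scaled so that the trimmed mean of every array is 150.

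The question of the first comparison was which genes were higher under NVP-HSP990. ZFAND2A was higher in shHSF1/NVP-HSP990 than in shNTC/DMSO by 1.30 on the scale of log2(signal + 16), with a standard error of 0.14 and a 95% interval of 0.99 to 1.62 (limma, Benjamini-Hochberg adjusted p = 0.00338). Over all genes, 0.197% were called higher and 0.0237% lower, and the median change was 0.0096. Of the 9 members, 1 was called higher and none lower, at an adjusted p under 0.05 or at an unadjusted one. Without the second shNTC/DMSO array the change was 1.22 and the adjusted p was 0.118. For scale, HSPA6, the strictly inducible HSP70, was 5.78 higher and DNAJB1, an HSP40 cochaperone, was 1.11 higher in the same comparison, and both were called. HSPA6 signals lay between 5.1 and 18.3, around the array medians, in every group but shHSF1/NVP-HSP990, so the size of its changes depends on the 16 added before the log.

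The second comparison asked which genes changed with the induced HSF1 hairpin under the inhibitor. Doxycycline and the induced hairpin differ together here, so loss of HSF1 cannot be told apart from other effects of either. The only control for Doxycycline was in shNTC cells under DMSO. ZFAND2A fell by 0.93 with the knockdown, in shHSF1/Dox/NVP-HSP990 against shHSF1/NVP-HSP990 (standard error 0.14, 95% interval -1.25 to -0.62, limma, adjusted p = 0.00710). Of all genes, 0.994% were called higher and 1.85% lower, and of the 9 members none was called higher and 1 lower. The adjusted p was 0.0540 without the second shHSF1/Dox/NVP-HSP990 array and 0.0503 when only these 4 arrays were fitted. HSPA6 fell by 5.60 and DNAJB1 fell by 1.05 in the same comparison. Both comparisons use the shHSF1/NVP-HSP990 arrays, so the higher value in one and the lower value in the other are not independent.

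ZFAND2A was higher in the knockdown cells with NVP-HSP990 than in shNTC cells with Doxycycline and DMSO. These groups differ in hairpin line, knockdown and inhibitor together, which cannot be told apart here. The mean signal in shHSF1/Dox/NVP-HSP990 was 1.49 times that in shNTC/Dox/DMSO, a log2 change of 0.56 (95% interval 0.24 to 0.87, limma, adjusted p = 0.0473). In this comparison 2.84% of all genes were called higher and 2.99% lower, and ZFAND2A was again the 1 member called. The call is narrow, and the adjusted p was 0.0587 to 0.182 when any 1 of the 8 arrays was left out. DNAJB1 differed by 0.08 between these groups and was not called (95% interval -0.32 to 0.47, adjusted p = 0.863 from limma). HSPA6 was 0.34 higher and was not called either (95% interval -0.20 to 0.88, adjusted p = 0.490 from limma).

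Doxycycline, which also induces the non-targeting hairpin, gave no called difference in shNTC cells. ZFAND2A had a log2 change of -0.19 in shNTC/Dox/DMSO against shNTC/DMSO, which did not pass the test (95% interval -0.50 to 0.13, adjusted p = 1.00 from limma). No gene was called by limma in this comparison (0%), with 306 genes at an unadjusted p under 0.05, and none by the methods' t-test after adjustment. The interaction, which subtracts the change with Doxycycline under DMSO (shNTC) from the change with Doxycycline under NVP-HSP990 (shHSF1), was -0.75 for ZFAND2A (standard error 0.20, 95% interval -1.19 to -0.30) and also missed the threshold (unadjusted p = 0.00379, adjusted p = 0.154 from limma). In the interaction 0.308% of genes were called higher and 0.481% lower, with no member among them. Hairpin line and inhibitor differ together in the interaction and cannot be told apart.

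**Figure D1:**
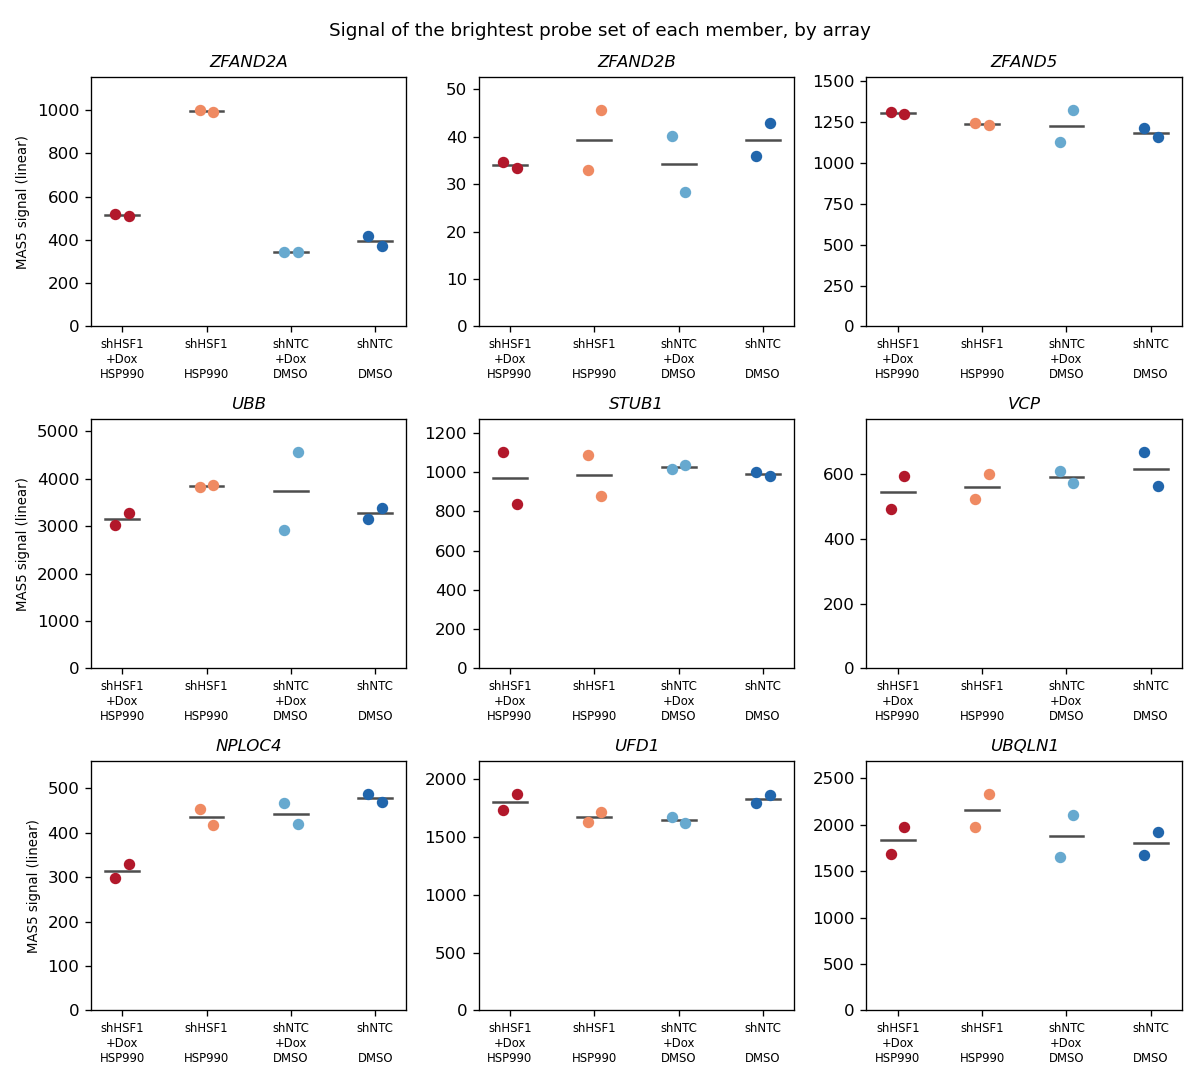
MAS5 signal on a linear scale starting at 0 for the brightest probe set of each of the 9 members, with a point for each array and a line for the mean of 2 arrays, in 4 groups that run from shHSF1/Dox/NVP-HSP990 at the left to shNTC/DMSO at the right. ZFAND2A reaches 991.4 and 1001.4 in shHSF1/NVP-HSP990 and stays at or below 518.7 in the other groups, and NPLOC4 is lowest in shHSF1/Dox/NVP-HSP990.

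The other AN1 zinc finger members did not pass the test. ZFAND2B, or AIRAPL, is the constitutive, membrane-anchored relative of ZFAND2A, and ZFAND5 is an A20 and AN1 zinc finger protein that activates the proteasome. ZFAND2B had signals of 34.6 and 33.5 in shHSF1/Dox/NVP-HSP990, 32.9 and 45.7 in shHSF1/NVP-HSP990, 40.1 and 28.4 in shNTC/Dox/DMSO, and 36.0 and 42.8 in shNTC/DMSO. All neighbouring groups in the order of its means overlapped. Its log2 change was -0.01 in shHSF1/NVP-HSP990 against shNTC/DMSO (95% interval -0.47 to 0.45) and -0.13 with the knockdown (95% interval -0.60 to 0.33). The brightest ZFAND5 probe set had signals of 1310.4 and 1301.4 in shHSF1/Dox/NVP-HSP990, 1242.2 and 1231.6 in shHSF1/NVP-HSP990, 1128.7 and 1324.6 in shNTC/Dox/DMSO, and 1213.0 and 1157.3 in shNTC/DMSO. These lie close together, with a log2 change of 0.06 in shHSF1/NVP-HSP990 against shNTC/DMSO (95% interval -0.26 to 0.38) and of 0.08 with the knockdown (95% interval -0.24 to 0.40). Of the other 4 ZFAND5 probe sets, 2 were too dim to test. The others gave -0.06 and -0.24 in shHSF1/NVP-HSP990 against shNTC/DMSO and 0.01 and 0.27 with the knockdown, without a call. The first of them spread widely within groups, at 837.3 and 490.6 in shHSF1/Dox/NVP-HSP990 and 840.2 and 481.3 in shHSF1/NVP-HSP990. The remaining AN1 genes, ZFAND1, ZFAND3, ZFAND4 and ZFAND6, had changes between -0.04 and 0.07 in shHSF1/NVP-HSP990 against shNTC/DMSO and between -0.30 and 0.26 with the knockdown, none called. The median of all 7 AN1 genes was 0.06 in the first comparison and -0.11 in the second, against medians of 0.0096 and 0.0015 over all genes.

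UBB encodes a polyubiquitin chain that is cut into single ubiquitins, and is one of the genes that refill the ubiquitin pool under stress. It had signals of 3030.6 and 3269.6 in shHSF1/Dox/NVP-HSP990, 3830.6 and 3877.3 in shHSF1/NVP-HSP990, 2910.8 and 4572.4 in shNTC/Dox/DMSO, and 3143.8 and 3395.2 in shNTC/DMSO. The shHSF1/NVP-HSP990 arrays lay above both the knockdown and the shNTC/DMSO arrays, and the highest single value was the second shNTC/Dox/DMSO array, the one with an ACTB ratio of 46.8. Whether that ratio bears on the UBB signal was not tested. The log2 change was 0.24 in shHSF1/NVP-HSP990 against shNTC/DMSO (95% interval -0.24 to 0.71) and -0.29 with the knockdown (95% interval -0.77 to 0.18), and neither was called (adjusted p = 1.00 and 0.595 from limma). Groups whose arrays do not overlap are common with 2 arrays each. That held for 33.2% of all genes and 6 of 9 members in shHSF1/NVP-HSP990 against shNTC/DMSO, and for 43.3% and 5 of 9 members with the knockdown. In shHSF1/Dox/NVP-HSP990 against shNTC/Dox/DMSO it held for 44.5% and 3 members, and with Doxycycline in shNTC cells for 28.4% and 4 members. Against shNTC/Dox/DMSO, UBB was -0.21 in shHSF1/Dox/NVP-HSP990, and 0.11 without the second shNTC/Dox/DMSO array. UBB has pseudogenes with near-identical ubiquitin repeats, and whether its probe set also reads them was not tested.

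STUB1, or CHIP, is the U-box E3 ligase that binds HSP70 and HSP90 and marks their clients for degradation. Its brightest probe set had signals of 1104.0 and 835.2 in shHSF1/Dox/NVP-HSP990, 1087.3 and 878.8 in shHSF1/NVP-HSP990, 1018.2 and 1038.5 in shNTC/Dox/DMSO, and 1001.1 and 979.8 in shNTC/DMSO. The arrays within each shHSF1 group lay farther apart than the groups did. The log2 change was -0.02 in shHSF1/NVP-HSP990 against shNTC/DMSO (95% interval -0.40 to 0.37) and -0.03 with the knockdown (95% interval -0.41 to 0.36). The dimmer STUB1 probe sets gave -0.22 and -0.20 in the first comparison and -0.02 and 0.04 with the knockdown, without a call. UBQLN1, or ubiquilin 1, carries ubiquitinated clients to the proteasome. It had signals of 1685.8 and 1981.7 in shHSF1/Dox/NVP-HSP990, 1974.1 and 2335.1 in shHSF1/NVP-HSP990, 1649.0 and 2105.7 in shNTC/Dox/DMSO, and 1678.7 and 1927.0 in shNTC/DMSO. The second array was the higher one in every group. Its log2 change was 0.25 in shHSF1/NVP-HSP990 against shNTC/DMSO (95% interval -0.15 to 0.66) and -0.23 with the knockdown (95% interval -0.63 to 0.17), neither called. A dimmer UBQLN1 probe set had the largest change of a probe set other than ZFAND2A's in the first comparison, 0.48, also not called (limma over single probe sets, unadjusted p = 0.0435, adjusted p = 1.00).

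VCP and its cofactor pair NPLOC4 and UFD1 form the core p97 machine for ubiquitinated substrates. NPLOC4 had signals of 299.1 and 330.3 in shHSF1/Dox/NVP-HSP990, 452.8 and 417.6 in shHSF1/NVP-HSP990, 466.4 and 418.7 in shNTC/Dox/DMSO, and 487.9 and 469.5 in shNTC/DMSO. Both knockdown arrays were below every other array. The mean in shHSF1/Dox/NVP-HSP990 was 0.723 times that in shHSF1/NVP-HSP990, a log2 change of -0.45 with a standard error of 0.15 and a 95% interval of -0.78 to -0.11, and it was not called (limma, unadjusted p = 0.0134, adjusted p = 0.169). Against shNTC/Dox/DMSO the change in shHSF1/Dox/NVP-HSP990 was -0.47 (adjusted p = 0.108 from limma), while shHSF1/NVP-HSP990 against shNTC/DMSO gave -0.13 and the interaction -0.34, neither called.

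UFD1, which pairs with NPLOC4, had signals of 1726.1 and 1869.2 in shHSF1/Dox/NVP-HSP990, 1628.8 and 1713.9 in shHSF1/NVP-HSP990, 1671.3 and 1616.7 in shNTC/Dox/DMSO, and 1785.4 and 1854.7 in shNTC/DMSO. The group means differed by little. The log2 change was 0.10 with the knockdown (95% interval -0.22 to 0.42) and -0.12 in shHSF1/NVP-HSP990 against shNTC/DMSO (95% interval -0.44 to 0.20). The brighter VCP probe set had signals of 491.4 and 594.8 in shHSF1/Dox/NVP-HSP990, 522.7 and 599.2 in shHSF1/NVP-HSP990, 609.8 and 571.8 in shNTC/Dox/DMSO, and 668.2 and 561.6 in shNTC/DMSO. Neighbouring groups in the order of the means overlapped throughout. Its log2 change was -0.13 in shHSF1/NVP-HSP990 against shNTC/DMSO (95% interval -0.49 to 0.24) and -0.05 with the knockdown (95% interval -0.41 to 0.32). The other VCP probe set gave 0.24 and -0.29, so the probe sets of VCP differ in sign in the first comparison, and neither was called. With all 24631 probe sets tested singly, 0.134% were called in shHSF1/NVP-HSP990 against shNTC/DMSO and 1.88% with the knockdown. Of the 16 member probe sets tested, the ZFAND2A one was called in both and no other was.

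**Figure D2:**
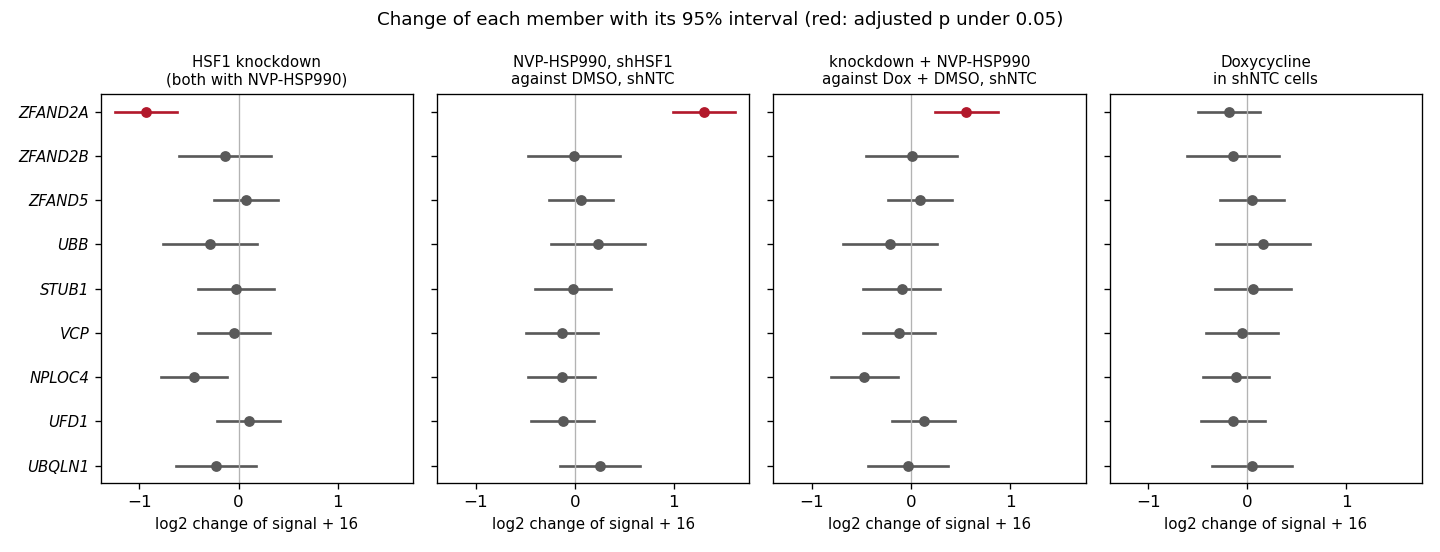
Change of each member on the log2(signal + 16) scale with its 95% interval from limma, for the knockdown, for shHSF1/NVP-HSP990 against shNTC/DMSO, for shHSF1/Dox/NVP-HSP990 against shNTC/Dox/DMSO, and for Doxycycline in shNTC cells. Red marks an adjusted p under 0.05, which ZFAND2A has in the first 3 panels, while the NPLOC4 intervals in both panels with knockdown cells lie below 0, at -0.78 to -0.11 in the first, but did not pass the adjustment.

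The wider machinery was read from lists of ubiquitin and p97 genes. With the knockdown, 0.994% of all genes were called higher and 1.85% lower. Among the 23 tested genes of p97 and its cofactors, 1 was called with the knockdown, and it was higher. This was YOD1, a deubiquitinase that trims substrates for p97. Its signals were 1617.1 and 1533.4 in shHSF1/Dox/NVP-HSP990, 670.1 and 881.4 in shHSF1/NVP-HSP990, 347.8 and 262.3 in shNTC/Dox/DMSO, and 504.3 and 610.2 in shNTC/DMSO. The knockdown arrays were the highest of all, and no group overlapped another. YOD1 was 1.02 higher with the knockdown (standard error 0.19, limma, adjusted p = 0.0196) and 2.32 higher in shHSF1/Dox/NVP-HSP990 than in shNTC/Dox/DMSO (adjusted p = 0.000231). The interaction was 1.86 (adjusted p = 0.0140 from limma), a call that held in 5 of 8 fits with 1 array left out (adjusted p up to 0.0881). In shNTC cells YOD1 had a log2 change of -0.84 with Doxycycline, not called (adjusted p = 1.00). Its dimmer probe set had signals of 78.5 and 82.8 in shHSF1/Dox/NVP-HSP990, 13.2 and 19.7 in shHSF1/NVP-HSP990, 9.4 and 8.0 in shNTC/Dox/DMSO, and 20.3 and 19.4 in shNTC/DMSO, and was also called higher with the knockdown when probe sets were tested singly (1.58, adjusted p = 0.00273). The YOD1 call with the knockdown was lost in 3 of 8 fits that left out 1 array, with adjusted p up to 0.126.

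In shHSF1/Dox/NVP-HSP990 against shNTC/Dox/DMSO, 2 of the 23 p97 genes were called, YOD1 and UBXN11, both higher. Over all genes, 2.84% were called higher and 2.99% lower in this comparison. Whether the counts in any of the lists exceed those shares was not tested. UBXN11, a protein with a UBX domain, had signals of 67.6 and 80.3 in shHSF1/Dox/NVP-HSP990, 41.6 and 55.6 in shHSF1/NVP-HSP990, 39.4 and 24.9 in shNTC/Dox/DMSO, and 35.0 and 31.3 in shNTC/DMSO. It was 0.91 higher (adjusted p = 0.0391 from limma), a call that held in 3 of 8 fits with 1 array left out. With the processing changed in other ways, the UBXN11 change ran from 0.52 to 1.21. Of 16 tested genes of ER-associated degradation, 1 was called in that comparison. HERPUD1, an ER membrane protein that organises the degradation complex and is induced by the unfolded protein response, had signals of 2056.3 and 1879.7 in shHSF1/Dox/NVP-HSP990, 1831.2 and 1528.5 in shHSF1/NVP-HSP990, 1012.5 and 989.6 in shNTC/Dox/DMSO, and 946.4 and 1029.7 in shNTC/DMSO. Both NVP-HSP990 groups lay above both DMSO groups. HERPUD1 was 0.96 higher in shHSF1/Dox/NVP-HSP990 than in shNTC/Dox/DMSO (limma, adjusted p = 0.00583), and its changes of 0.75 in shHSF1/NVP-HSP990 against shNTC/DMSO (adjusted p = 0.148) and of 0.23 with the knockdown (adjusted p = 0.537) did not pass the test.

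Among 13 tested deubiquitinases, 1 was called, OTUB2, in shHSF1/Dox/NVP-HSP990 against shNTC/Dox/DMSO, where 2.99% of all genes were called lower. OTUB2 had signals of 45.5 and 30.8 in shHSF1/Dox/NVP-HSP990, 97.6 and 74.5 in shHSF1/NVP-HSP990, 88.1 and 77.8 in shNTC/Dox/DMSO, and 93.6 and 93.7 in shNTC/DMSO. Its knockdown arrays were below every other array. It fell by 0.88 against shNTC/Dox/DMSO (limma, adjusted p = 0.0422, held in 2 of 8 fits with 1 array left out), and its change with the knockdown was -0.92 (adjusted p = 0.0531). With the processing changed in other ways, the OTUB2 change against shNTC/Dox/DMSO ran from -1.12 to -0.47. None of 8 ubiquilins and shuttle factors and none of 15 E1, E2 and quality control E3 enzymes was called in any comparison by limma. The methods' t-test was not run for the interaction. It called none of the 12672 genes elsewhere, so its lack of calls says nothing about these lists. At an unadjusted p under 0.05 in limma, no enzyme and at most 1 shuttle factor passed in a comparison. These were SGTA in shHSF1/NVP-HSP990 against shNTC/DMSO (-0.61) and in the interaction (0.77), and UBQLN4 with the knockdown (-0.48) and in shHSF1/Dox/NVP-HSP990 against shNTC/Dox/DMSO (-0.48). With the knockdown the list medians were -0.05 for p97 and its cofactors, -0.05 for ubiquilins and shuttle factors, -0.03 for the E1, E2 and E3 enzymes, 0.14 for ER-associated degradation and -0.06 for deubiquitinases, against 0.0015 over all genes. In contrast, all 9 genes of the list of HSF1 and its known targets were called lower with the knockdown (median -2.19) and 7 of 9 higher in shHSF1/NVP-HSP990 against shNTC/DMSO (median 1.54). That list was drawn up knowing genes that the study had picked on these arrays, so its direction is not independent evidence. Apart from HSPA6, its lowest changes with the knockdown were -2.73 for the cochaperone BAG3, -2.62 for the small heat shock protein HSPB1 and -2.23 for the HSP110 family member HSPA4L.

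**Figure D3:**
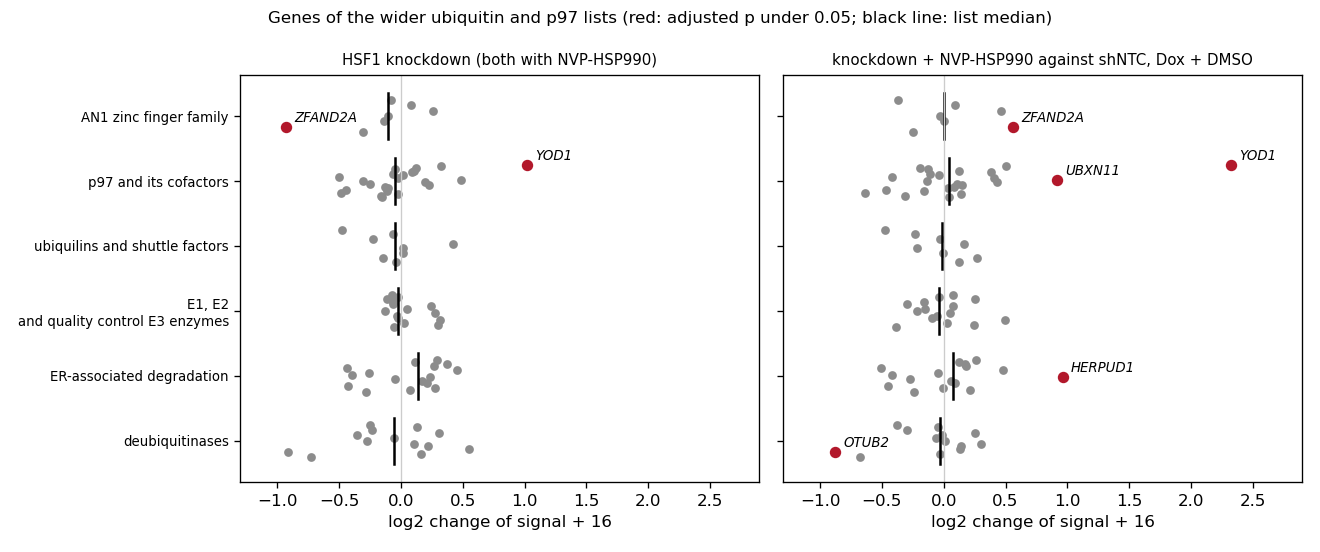
Change on the log2(signal + 16) scale of each tested gene of 6 ubiquitin and p97 lists, with the knockdown (left) and in shHSF1/Dox/NVP-HSP990 against shNTC/Dox/DMSO (right), where black lines are list medians and red marks an adjusted p under 0.05 from limma. ZFAND2A is at -0.93 and YOD1 at 1.02 in the left panel, and YOD1 at 2.32 lies farthest from 0 in the right one.

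The genes whose pattern over the 8 arrays was most like that of ZFAND2A were MAGEH1 (Pearson r = 0.985), ERN1 (0.983), ADGRA2 (0.970), DNAJB4 (0.967), MXD1 (0.966), DMRT1 (0.965), HSPA1L (0.960) and INHBE (0.958), on the log2(signal + 16) scale. ERN1 encodes IRE1, a sensor of unfolded proteins in the ER, DNAJB4 an HSP40 cochaperone and HSPA1L an HSP70. All 8 genes were highest on the 2 shHSF1/NVP-HSP990 arrays, which their choice by correlation largely fixes. MAGEH1, ERN1 and ADGRA2 were called in no comparison. Their changes in shHSF1/NVP-HSP990 against shNTC/DMSO were 0.44, 0.55 and 0.48 (adjusted p = 0.893, 0.665 and 0.884 from limma). DNAJB4, MXD1, DMRT1 and HSPA1L were called higher there and lower with the knockdown. INHBE was called higher there and in shHSF1/Dox/NVP-HSP990 against shNTC/Dox/DMSO, but not with the knockdown. MAGEH1 had signals of 139.4 and 130.6 in shHSF1/Dox/NVP-HSP990, 173.5 and 175.0 in shHSF1/NVP-HSP990, 121.7 and 124.2 in shNTC/Dox/DMSO, and 128.3 and 119.8 in shNTC/DMSO. DNAJB4 spanned a wider range, with signals of 223.0 and 349.1 in shHSF1/Dox/NVP-HSP990, 753.3 and 1110.6 in shHSF1/NVP-HSP990, 178.2 and 149.9 in shNTC/Dox/DMSO, and 183.1 and 177.5 in shNTC/DMSO. HSPA6 ranked 14 with r = 0.945 and DNAJB1 ranked 23 with r = 0.929 among the tested genes. The 8 arrays fall into 4 groups of 2, so these correlations describe mainly the order of the group means.

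No other member followed ZFAND2A closely. Its r was 0.523 with UBQLN1, 0.276 with UBB, 0.198 with ZFAND5 and 0.192 with ZFAND2B, and it was -0.114 with NPLOC4, -0.141 with STUB1, -0.210 with UFD1 and -0.285 with VCP. UBB was most like SNX3, a sorting nexin (r = 0.985), HNRNPM, a splicing factor (0.972), and RCN1, an ER calcium-binding protein (0.969). All 3 shared with UBB its highest value on the second shNTC/Dox/DMSO array. Among the members UBQLN1 was closest to UBB (r = 0.807).

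**Figure D4:**
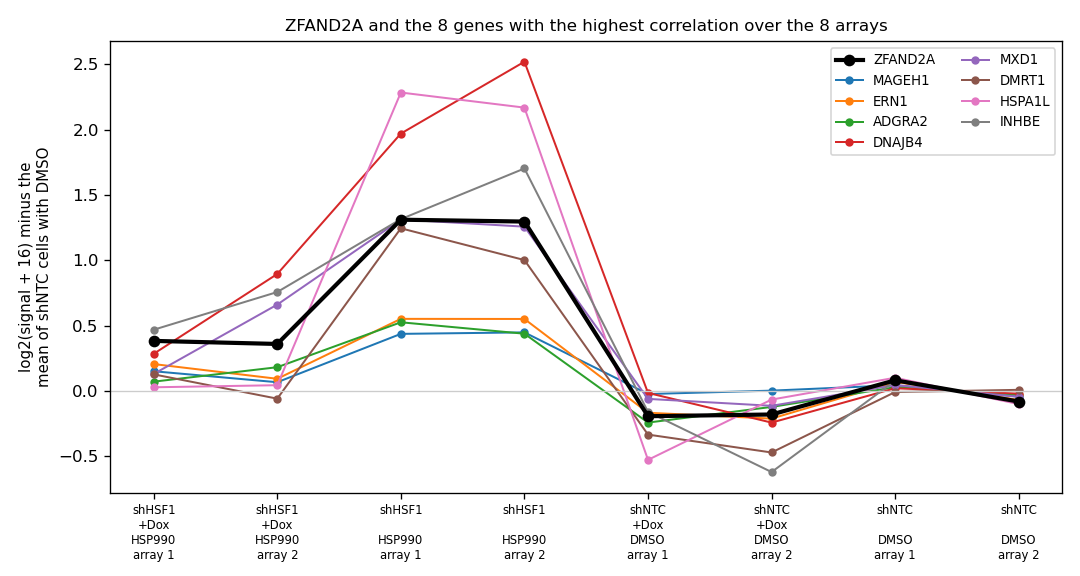
Signal of ZFAND2A (black) and of the 8 genes with the highest Pearson correlation to it, as log2(signal + 16) minus the mean of the shNTC/DMSO arrays, over the 8 arrays in group order. Every line peaks on the 2 shHSF1/NVP-HSP990 arrays, with r between 0.958 and 0.985.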

How the data were processed

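RNA of A375 cells was hybridized to HG-U133 Plus2 arrays. The deposited intensities were computed by the authors with MAS5 (version not given in the sources used here), linear, with a trimmed mean of 150 per array (2% at each end). They were not normalized further. Of 54675 probe sets, 1801 with several symbols, 11721 with none and 62 controls were left out, symbols coming from the platform annotation. The brightest single-symbol probe set stood for each gene, and probe sets were also tested singly. log2(signal + 16) was fitted in limma 3.58.1 (R 4.3.3) with a mean per group (8 arrays) and eBayes with an intensity trend (4 residual and 6.36 prior degrees of freedom), two-sided, Benjamini-Hochberg adjusted over 12672 genes, called under 0.05. The number of arrays limits the precision. The steps were tested on simulated data. The members, lists and tests were chosen with earlier results of these data known. Named were all members, HSF1, called genes of each list (up to 4), the genes most correlated with ZFAND2A (8) and UBB (3), and HSPA6 and DNAJB1. ZFAND1, ZFAND3, ZFAND4, ZFAND6, UBQLN4 and SGTA were named after their values were seen. Promoters came from RefSeq (GRCh38.p14). The alternatives were another value added, other filters, the mean of all probe sets, median centring, quantile normalization, no trend, only the compared arrays, a replicate block, the Student test of the study's statistics section (the methods' t-test), and each array left out.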

Additional observations from a re-analysis of the deposited data

How the results depend on the processing

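The ZFAND2A changes kept their direction under every alternative run, and only the calls moved. In shHSF1/NVP-HSP990 against shNTC/DMSO, ZFAND2A was called in all settings but the methods' t-test (1.30, adjusted p = 0.685, 0 members called) and the fit without the second shNTC/DMSO array, with changes of 1.22 to 1.39 over the fits with 1 array left out (0 to 1 member called). With the knockdown it was lost with only the compared arrays (-0.93, 0 called), with the methods' t-test (-0.93, adjusted p = 0.324, 0 called) and without the second shHSF1/Dox/NVP-HSP990 array (range -0.94 to -0.92, 0 to 1 called). In shHSF1/Dox/NVP-HSP990 against shNTC/Dox/DMSO the ZFAND2A call was lost, leaving 0 members called, with 1 added before the log (0.58, adjusted p = 0.0521), no filter (0.56, 0.0700), quantile normalization (0.56, 0.0565), median centring (0.51, 0.122), all probe sets singly (0.56, 0.0671), no trend (0.56, 0.0735), only the compared arrays (0.56, 0.136), the methods' t-test (0.56, 0.317) and each array left out (0.55 to 0.57, 0 called). It held in the other 4. The methods' t-test called no gene at all in any comparison where it was run, so its lost calls are not particular to ZFAND2A. The causes were not tested.

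Uncalled values turned in sign as follows. With the mean of all probe sets, shHSF1/NVP-HSP990 against shNTC/DMSO gave -0.019 for ZFAND5 and 0.055 for VCP, and quantile normalization gave -0.020 for UBB with Doxycycline in shNTC cells. With 1 array left out, ZFAND2B ranged over -0.18 to 0.16 and STUB1 over -0.17 to 0.13 in shHSF1/NVP-HSP990 against shNTC/DMSO. With the knockdown, ZFAND2B ranged over -0.30 to 0.033, STUB1 over -0.22 to 0.17 and VCP over -0.18 to 0.085. UBB ranged over -0.54 to 0.11 in shHSF1/Dox/NVP-HSP990 against shNTC/Dox/DMSO and over -0.17 to 0.48 with Doxycycline in shNTC cells, both turned by the second shNTC/Dox/DMSO array. No member other than ZFAND2A was called in any setting.

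Groups share replicate numbers, but no label says what a number pairs. Same-numbered arrays deviated together at 0.685 between the shHSF1 groups and at 0.0156 between shHSF1/Dox/NVP-HSP990 and shNTC/Dox/DMSO. With a replicate block ZFAND2A kept changes of 1.30, -0.93 and 0.56 (adjusted p = 0.00368, 0.00389 and 0.0214), and the interaction stayed uncalled (adjusted p = 0.0681). The number of genes called overall was 28 in shHSF1/NVP-HSP990 against shNTC/DMSO, 360 with the knockdown, 739 in shHSF1/Dox/NVP-HSP990 against shNTC/Dox/DMSO and 100 in the interaction. With the replicate block these were 44, 752, 1237 and 279, with no filter 16, 221, 450 and 59, and the lowest with 1 array left out were 5, 123, 263 and 7. With only the compared arrays the knockdown called 95. The 2 arrays per group and the dim signals of ZFAND2B, from 28.4 to 45.7, limit what can be seen.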
